A study of Mus musculus with 4 samples.

Results

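The aminoacyl-tRNA synthetases are the enzymes that join each amino acid to its transfer RNA. Their mRNA levels were examined in MC38 cells, a mouse colon carcinoma cell line. The 36 genes were taken by symbol, 20 for the cytosolic enzymes and 16 for the mitochondrial enzymes, whose symbols end in 2. All 36 were found among the 24346 symbols of the expression tables. The study compared Arid5a knockout (KO) MC38 cells, described as Arid5a-deficient, with wild-type (WT) MC38 cells in 2 RNA sequencing libraries each. Both groups are the same cell line, and the labels name no other treatment. KPC cells, named in the series design, were not analysed here. How the gene was disrupted, the deleted part, whether the KO cells are a clone and whether replicates were separate cultures are not stated in the labels, so errors cover only the spread between these libraries. The members were chosen by gene family, with the KO against WT log2 changes of these same libraries already known, so their changes are given as a description.

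Each synthetase recognises its amino acid and the matching transfer RNAs, and the charged transfer RNA then carries the amino acid to the ribosome. Cytosolic protein synthesis and the separate translation system inside mitochondria mostly use different sets of enzymes, all encoded in the nucleus. In mouse and human, Gars and Kars each provide the enzyme for both compartments, and mitochondria make glutaminyl-tRNA through the glutamyl enzyme Ears2 and an amidotransferase rather than through a glutaminyl enzyme. Several cytosolic synthetases are held together with scaffold proteins in the multisynthetase complex. When amino acids are scarce, uncharged transfer RNA activates the kinase GCN2 (gene Eif2ak4), and the transcription factor ATF4 then raises amino acid transporters, amino acid synthesis enzymes and a number of cytosolic synthetases.

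The values are FPKM, fragments scaled to transcript length and to library depth, so levels of different genes can be compared per length. The depth, estimated from low values, came to about 10200000 and 11300000 fragments for the KO replicates and 15500000 and 11800000 for the WT replicates. The targeted gene Arid5a stood at 2.16 and 1.77 FPKM in the libraries labelled KO, against 0.225 and 0.124 FPKM in those labelled WT, so it was higher where the labels say it was knocked out. Every direction below therefore refers to the labels as deposited and not to a loss of Arid5a. Of 10 colon epithelial markers, 0 reached a mean of 1 FPKM, and Epcam, Cdx2 and Cldn7 were listed at 0 in all 4 libraries. The summed epithelial markers were 1.05 and 0.839 FPKM in the libraries labelled KO and 0.703 and 1.21 FPKM in those labelled WT. Of 7 leukocyte markers, the only one at a mean of 1 FPKM or more was Cd68, and Cd3e, Itgam and Adgre1 were listed at 0 in all 4 libraries. The summed leukocyte markers were 1.08 and 1.84 FPKM in the libraries labelled KO and 6.20 and 5.91 FPKM in those labelled WT. Nearly all of this sum was Cd68, with 1.03 and 1.67 FPKM in the libraries labelled KO and 6.14 and 5.80 FPKM in those labelled WT. Both far below 1 FPKM, Ptprc was higher in the libraries labelled WT and Csf1r in those labelled KO. Of 4 fibroblast markers, 3 reached a mean of 1 FPKM, and the summed level was 10.6 and 11.3 FPKM in the libraries labelled KO and 15.2 and 14.1 FPKM in those labelled WT. Dcn accounts for this gap, with 0.613 and 0.993 FPKM in the libraries labelled KO and 5.13 and 4.53 FPKM in those labelled WT. Pdgfra overlapped between the groups, and Pdgfrb lay above the WT replicates, with 3.51 and 3.33 FPKM in the libraries labelled KO and 2.98 and 3.15 FPKM in those labelled WT. None of 3 endothelial markers reached a mean of 1 FPKM, and their sum was 0.832 and 0.904 FPKM in the libraries labelled KO and 0.537 and 0.450 FPKM in those labelled WT. The part of these markers in the differences below was not tested. In bulk RNA, a change in the share of a cell type and a change per cell cannot be told apart.

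Cytosolic synthetase mRNAs were mostly abundant and mitochondrial ones mostly scarce. The median cytosolic gene measured 93.0 and 93.0 FPKM in the libraries labelled KO and 84.0 and 82.9 FPKM in those labelled WT. The median mitochondrial gene measured 10.4 and 10.5 FPKM in the libraries labelled KO and 12.7 and 12.6 FPKM in those labelled WT. All 36 genes were at 1 FPKM or more in every library, so the filter on low values removed none. Kars, the lysyl enzyme, ranked highest of the 36 in all 4 libraries, and Ears2 ranked lowest in all 4. Below Kars the next ranks went to Gars (glycyl) and Aars (alanyl) in the libraries labelled KO, and to Rars (arginyl) and Gars in those labelled WT. The lowest cytosolic gene differed between the groups as well. It was Wars (tryptophanyl) at 37.4 and 39.0 FPKM in the libraries labelled KO, and Cars (cysteinyl) at 15.9 and 15.6 FPKM in those labelled WT. Fars2, Wars2 and Ears2 held ranks 32, 35 and 36 in every library, and Nars2 and Pars2 lay between them and changed places in WT replicate 2.

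**Figure D1:**
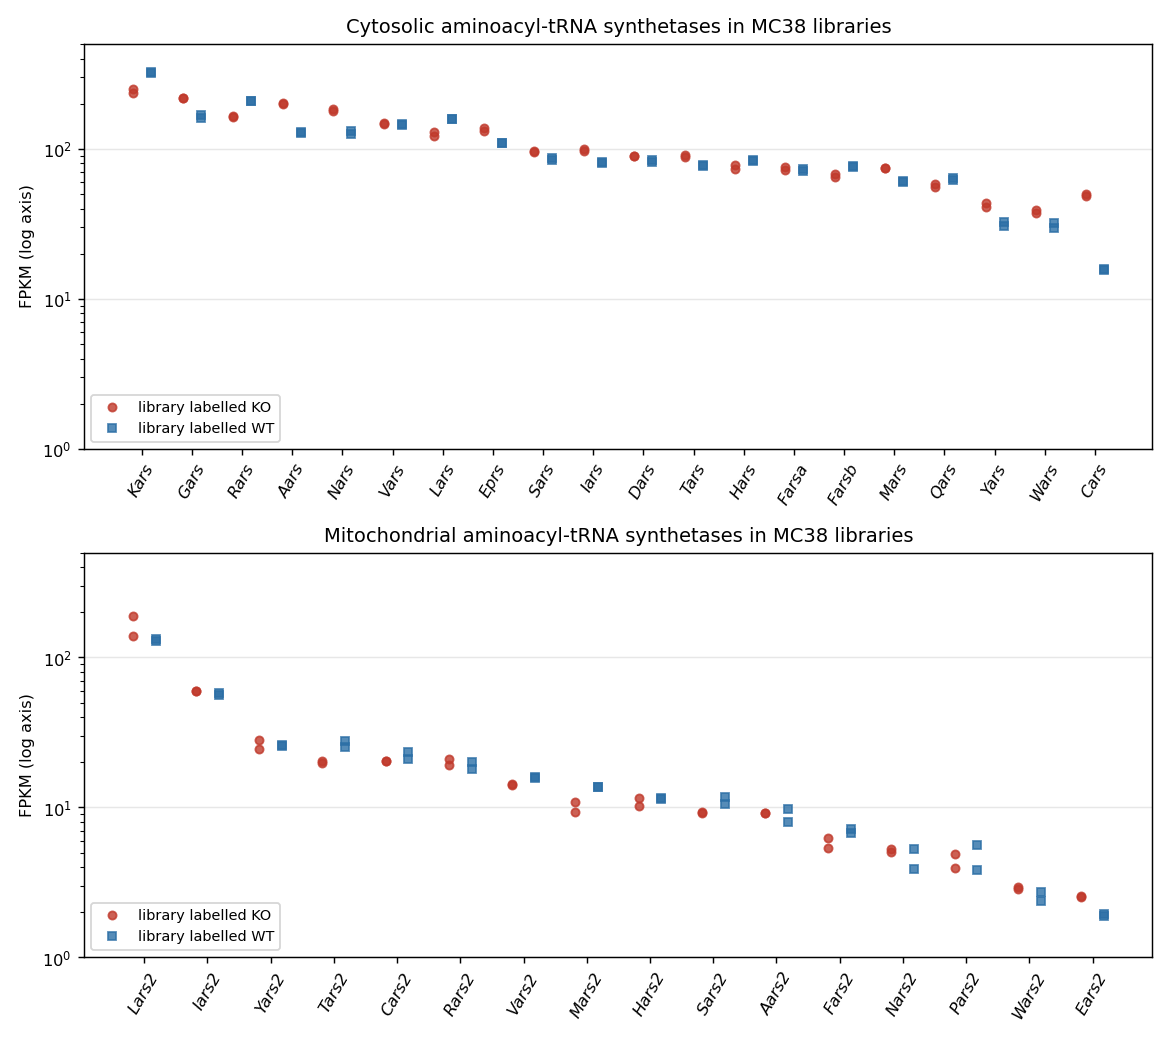
FPKM of each synthetase gene (log axis) in the 2 libraries labelled KO (red circles) and the 2 labelled WT (blue squares), with cytosolic genes in the upper panel and mitochondrial genes in the lower panel, ordered by mean level. Kars is the highest cytosolic gene in every library, Cars is the cytosolic gene with the widest gap between groups, and Lars2 and Iars2 stand above the other mitochondrial genes.

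Differences between the groups were estimated with limma for the 10827 genes whose mean reached 1 FPKM. Genes are described as called where the p adjusted by Benjamini-Hochberg over all of them was under 0.05. Each log2 change is the mean log2(FPKM + 1) of the libraries labelled KO minus that of the libraries labelled WT, with its standard error (SE). Among the 20 cytosolic genes, 12 were called higher (60%), 6 lower (30%) and 2 were not called. Over all genes tested, 24.4% were called higher, 23.3% lower and 47.6% in either direction. With each library scaled to the same FPKM sum, the calls over all genes were 1939 higher and 3259 lower, against 2641 and 2518 as reported. In the highest tertile of expression, which holds all 20 cytosolic genes, 59.3% of genes were called, 30.9% higher and 28.5% lower. The median cytosolic log2 change was 0.19, beside 0.01 over all genes tested. The groups did not overlap for 19 of the 20 cytosolic genes, against 77.5% of all genes tested. Because the members were chosen with this contrast known, nothing is read from these counts.

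Cars, which charges cysteine, had the largest difference of the family. It measured 48.6 and 49.96 FPKM in the libraries labelled KO, against 15.9 and 15.6 FPKM in those labelled WT. The group means stood in a ratio of 3.14, the log2 change was 1.59 ± 0.039 (SE), and 53 of the 10827 genes tested had a larger positive change. The gene lies on chromosome 7 from 143557230 to 143600090 on the minus strand (GRCm38). Aars followed, at 202 and 199.5 FPKM in the libraries labelled KO, against 128 and 129 FPKM in those labelled WT, a log2 change of 0.64 ± 0.026. Aars (chromosome 8, 111033144 to 111057664, plus strand) has an annotated transcript that shares 1326 bases with its neighbour Exosc6 on the same strand. Exosc6, a subunit of the RNA exosome, measured 30.1 and 33.0 FPKM in the libraries labelled KO and 33.2 and 31.8 FPKM in those labelled WT, and its groups overlapped.

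Nars, the asparaginyl enzyme, measured 185 and 178 FPKM in the libraries labelled KO and 131 and 126 FPKM in those labelled WT, a log2 change of 0.49 ± 0.034. Gars measured 218 and 218 FPKM in the libraries labelled KO, against 168 and 159 FPKM in those labelled WT (0.41 ± 0.035). Yars, the tyrosyl enzyme, measured 43.3 and 41.2 FPKM in the libraries labelled KO, against 32.3 and 30.7 FPKM in those labelled WT (0.41 ± 0.046). These 3 genes rose by similar amounts, and in each the lower library labelled KO lay above the higher one labelled WT. Wars, an enzyme also known as interferon-inducible, measured 37.4 and 39.0 FPKM in the libraries labelled KO, against 29.7 and 32.2 FPKM in those labelled WT (0.29 ± 0.052). Tars, the threonyl enzyme, rose by 0.21 ± 0.032 and Sars, the seryl enzyme, by 0.16 ± 0.030. The call of Sars was lost without WT replicate 2 and with equal FPKM sums.

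The 8 synthetases of the multisynthetase complex parted evenly, with 4 called higher and 4 lower. Eprs, which joins the glutamyl and prolyl enzymes in 1 protein, rose by 0.29 ± 0.032, with 132 and 138 FPKM in the libraries labelled KO and 110 and 110 FPKM in those labelled WT. Mars (methionyl) rose by 0.29 ± 0.031 and Iars (isoleucyl) by 0.26 ± 0.030. Dars (aspartyl) was higher by 0.11 ± 0.031, a call that was lost when any 1 of the 4 libraries was left out, with equal FPKM sums and without a variance trend. Iars shares a stretch of 1656 bases at 96.0% identity with the processed pseudogene Gm4849, so reads between them could be split.

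Kars measured 237 and 251 FPKM in the libraries labelled KO, against 324 and 321 FPKM in those labelled WT. Its log2 change of -0.40 ± 0.035 was the lowest among the cytosolic genes. Lars, the leucyl enzyme, measured 129 and 122 FPKM in the libraries labelled KO, against 159 and 159 FPKM in those labelled WT (-0.35 ± 0.035). Rars measured 166 and 163.1 FPKM in the libraries labelled KO, against 207 and 209 FPKM in those labelled WT (-0.34 ± 0.026). By the mean over all 4 libraries these 3 genes were among the 8 most abundant of the family, with Lars at rank 9 in both libraries labelled KO and rank 4 in both labelled WT, and neither library labelled KO reached the lower library labelled WT in any of them. Qars, the glutaminyl enzyme, was the 4th complex member called lower, at -0.13 ± 0.039, and its call was lost when any 1 of the 4 libraries was left out, without the filter, with quantile normalization and without a variance trend. The median log2 change was -0.01 for the 8 complex members and 0.25 for the 12 cytosolic genes outside the complex, of which 8 were called higher and 2 lower.

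The 2 called lower outside the complex were Farsb (-0.19 ± 0.037) and Hars, the histidyl enzyme (-0.14 ± 0.039). Farsa and Farsb encode the catalytic and the partner subunit of the phenylalanyl enzyme, and they did not move together. Farsa measured 72.5 and 76.1 FPKM in the libraries labelled KO and 73.0 and 71.4 FPKM in those labelled WT. Farsb measured 68.2 and 64.8 FPKM in the libraries labelled KO and 75.5 and 76.3 FPKM in those labelled WT. The ratio of Farsa to Farsb was 1.06 and 1.17 in the libraries labelled KO, against 0.967 and 0.935 in those labelled WT. Vars, the valyl enzyme, measured 147 and 149 FPKM in the libraries labelled KO and 146 and 144 FPKM in those labelled WT, and neither it nor Farsa was called. The call of Farsb was lost without WT replicate 1 or WT replicate 2, and that of Hars when WT replicate 1, WT replicate 2 or KO replicate 2 was left out, and also without the filter or a variance trend. With Qars, these took the number of cytosolic genes called lower to 3 without WT replicate 1 and to 3 without WT replicate 2.

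Split by the catalytic class of their enzymes, the 9 cytosolic class I genes had 5 called higher and 3 lower with a median of 0.26, and the 10 class II genes had 6 higher and 3 lower with a median of 0.13. Eprs holds an enzyme of each class and was left out of this split. The summed level of the 20 genes was 2266 and 2270 FPKM in the libraries labelled KO and 2138 and 2116 FPKM in those labelled WT. As a share of all FPKM it was 0.355% and 0.361% in the libraries labelled KO and 0.356% and 0.347% in those labelled WT, so the shares overlapped between groups.

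**Figure D2:**
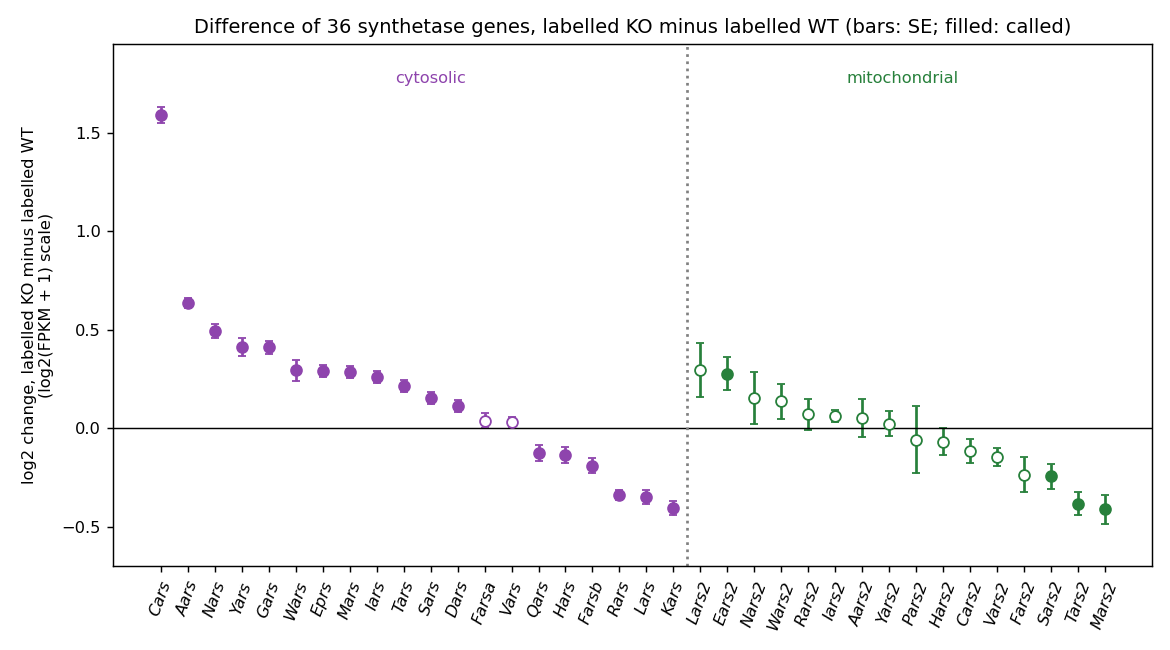
Log2 change of each synthetase gene, libraries labelled KO minus libraries labelled WT on the log2(FPKM + 1) scale (points; bars are SE, n = 2 per group), with filled points for genes called by limma. Cytosolic genes (purple) run from 1.59 for Cars to -0.40 for Kars, and mitochondrial genes (green) from 0.30 for Lars2, which was not called, to -0.41 for Mars2.

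Gene starts were searched for letters related to the regulation of these enzymes. Promoter sequences (250 bases before to 50 after the start) came from the RefSeq table on GRCm38.p6 and were matched for 27 of the 36 genes, 13 cytosolic and 14 mitochondrial. Those of Cars, Hars, Lars, Nars, Rars, Vars, Wars, Hars2 and Pars2 were not used here. The C/EBP-ATF element, which ATF4 is known to bind, was searched as TGATGNAA on both strands. It occurred in 5 of the 13 cytosolic promoters and in 0 of the 14 mitochondrial ones. The share was 3.97% of all 32851 promoters and 4.51% of their 27025 genes. With a match in only 4.51% of all genes, 0 of 14 mitochondrial promoters does not set that class apart. A stretch with a match is shown for each of the 5 cytosolic genes because ATF4 is known to bind this element. Each is read along the element, with the element in capitals, on the GRCm38.p6 strand named. Distances run from the RefSeq start to the first base of the element in the direction of the gene.
Aars, chr8:111033840-111033869, minus strand, from base 10 after the start: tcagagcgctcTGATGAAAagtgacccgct
Gars, chr6:55037960-55037989, minus strand, 30 bases before the start: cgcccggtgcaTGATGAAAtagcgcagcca
Iars, chr13:49682126-49682155, minus strand, from base 8 after the start: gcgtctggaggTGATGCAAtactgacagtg
Tars, chr15:11399655-11399684, plus strand, 15 bases before the start: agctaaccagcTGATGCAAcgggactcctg
Yars, chr4:129189895-129189924, plus strand, from base 4 after the start: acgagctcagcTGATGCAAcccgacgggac
All 5 genes with the element were called higher, with log2 changes of 0.21 to 0.64 and a median of 0.41. Of the 8 cytosolic genes whose promoter lacked these letters, 4 were called higher, 3 lower and 1 was not called, with a range of -0.40 to 0.29 and a median of 0.08. Across all genes tested that had a promoter, 28.7% of the 216 with the element and 24.7% of the 8104 without it were called higher. Of the same genes, 22.2% with the element and 23.0% without it were called lower. A match describes letters and not a bound site.

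The E-box CACGTG, a sequence bound by MYC and related factors, was also searched. It occurred in 4 of 13 cytosolic promoters, those of Aars, Iars, Tars and Farsb, and in 1 of 14 mitochondrial promoters, that of Ears2. The share was 7.15% of all promoters and 8.09% of all genes with a promoter. The stretches follow because 3 of these genes also hold the element above, and capitals mark the E-box.
Aars, chr8:111033684-111033713, plus strand: agtcaaccctgtCACGTGacactccatgtc
Iars, chr13:49682049-49682078, plus strand: gaccaatcgccaCACGTGttgtttgtaggt
Tars, chr15:11399622-11399651, minus strand: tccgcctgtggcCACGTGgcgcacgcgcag
Farsb, chr1:78488919-78488948, minus strand: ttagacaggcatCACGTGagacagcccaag
Ears2, chr7:122067048-122067077, minus strand: cgcgaaggagccCACGTGtgtgtttctagt
Of these 5 genes, Aars, Iars, Tars and Ears2 were called higher and Farsb lower. Across all genes tested that had a promoter, 27.8% of the 1016 with the E-box and 24.4% of the 7304 without it were called higher. The shares called lower were 20.7% and 23.3%. The interferon-related GAS letters TTCNNNGAA occurred in Aars, Kars and Nars2 and in 8.30% of all promoters (9.55% of genes). The interferon-stimulated response element, ISRE, occurred in Qars and in 3.44% of all promoters (3.99% of genes). No matches of the 4 motifs overlapped each other in these promoters.

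Of the 16 mitochondrial synthetase genes, 1 was called higher (6.25%), 3 lower (18.8%) and 12 were not called, and the median log2 change was -0.02. They lay lower in expression than the cytosolic genes, with 5 in the lowest tertile of expression, where 36.5% of all genes tested were called, 9 in the middle tertile, where 47.1% were, and 2 in the highest. The groups did not overlap for 10 of the 16 (62.5%), below the 77.5% of all genes tested. Mars2, the mitochondrial methionyl enzyme, measured 9.37 and 10.8 FPKM in the libraries labelled KO, against 13.6 and 13.8 FPKM in those labelled WT, a log2 change of -0.41 ± 0.075. Tars2, the threonyl enzyme, measured 20.5 and 19.8 FPKM in the libraries labelled KO, against 27.9 and 25.3 FPKM in those labelled WT (-0.38 ± 0.059). Sars2, the seryl enzyme, measured 9.36 and 9.15 FPKM in the libraries labelled KO, against 11.7 and 10.6 FPKM in those labelled WT (-0.24 ± 0.065). Each of these 3 genes lay lower in both libraries labelled KO than in either labelled WT. The call of Mars2 was lost without WT replicate 1 or WT replicate 2, and that of Sars2 without WT replicate 1, KO replicate 1, KO replicate 2 or the filter. The number called lower was 1 without WT replicate 1 and 5 with equal FPKM sums.

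Ears2 was the mitochondrial gene called higher, at 2.52 and 2.56 FPKM in the libraries labelled KO, against 1.89 and 1.947 FPKM in those labelled WT (0.28 ± 0.085). At these depths and over its longest annotated transcript, these values correspond to about 107 to 137 fragments per library. Its call was lost when any 1 of the 4 libraries was left out, at a pseudocount of 0.1, without the filter and with equal FPKM sums. Iars2, the isoleucyl enzyme, was the 2nd most abundant mitochondrial gene and close between groups. It measured 60.1 and 59.6 FPKM in the libraries labelled KO and 57.9 and 56.6 FPKM in those labelled WT (0.06 ± 0.032, not called). Its transcripts share 2034 bases with Rab3gap2 on the opposite strand, and those of Fars2, the phenylalanyl enzyme, share 503 bases with Nrn1 on the opposite strand. Whether strand was used in the authors' quantification is not given in the sources used here, so reads of these pairs cannot be told apart with certainty.

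Fars2 measured 6.27 and 5.34 FPKM in the libraries labelled KO and 6.75 and 7.24 FPKM in those labelled WT (-0.23 ± 0.090). Vars2, the valyl enzyme, measured 14.4 and 14.1 FPKM in the libraries labelled KO and 15.6 and 16.1 FPKM in those labelled WT (-0.14 ± 0.046). Neither was called, although the groups did not overlap, and both were called lower with equal FPKM sums. The other genes not called, Aars2, Cars2, Hars2, Nars2, Pars2, Rars2, Wars2 and Yars2, had log2 changes of -0.11 to 0.15. Replicates varied most for the scarce Pars2, the mitochondrial prolyl enzyme, with 3.97 and 4.89 FPKM in the libraries labelled KO and 3.83 and 5.58 FPKM in those labelled WT. The SD of its WT libraries was 26.3% of their mean, whereas no cytosolic gene exceeded 5.71% in either group. The SE of its log2 change, 0.17, was the largest of the 36 genes, so a change the size of that of Wars or Tars was not detectable for Pars2.

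Lars2, the mitochondrial leucyl enzyme (chromosome 9, 123366927 to 123462666, plus strand), stood apart from the other mitochondrial genes in level and in spread. It measured 188 and 139 FPKM in the libraries labelled KO and 133 and 129 FPKM in those labelled WT (0.30 ± 0.14, not called). KO replicate 1 was far above the other 3 libraries. The same library was the highest for Rn45s, the ribosomal RNA precursor, with 460 and 214 FPKM in the libraries labelled KO and 236 and 227 FPKM in those labelled WT. It was also the highest for the non-coding RNAs Rmrp and Rpph1. Rmrp measured 20.9 and 4.71 FPKM in the libraries labelled KO and 9.62 and 4.56 FPKM in those labelled WT. Rpph1 measured 12.3 and 5.90 FPKM in the libraries labelled KO and 2.74 and 4.29 FPKM in those labelled WT, and was called higher. The part of these RNAs in the level of Lars2 was not tested. Without KO replicate 1 the log2 change of Lars2 was 0.08, and without KO replicate 2 it was 0.52 and was called. The summed mitochondrial level was 407 and 362 FPKM in the libraries labelled KO and 371 and 357 FPKM in those labelled WT, so the groups overlapped. Without Lars2 the sums were 219 and 223 FPKM in the libraries labelled KO, against 238 and 228 FPKM in those labelled WT, and the groups no longer overlapped.

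For 13 amino acids the family holds a cytosolic and a mitochondrial gene of matching symbol, which allows each ratio to be read within a library. Eprs, Farsa and Farsb have no match of this kind and were not paired with Ears2, Pars2 and Fars2. The ratio was higher in both libraries labelled KO than in either labelled WT for 10 pairs and lower for 3. None of these 13 pairs overlapped, and this does not extend to the unpaired genes. For comparison, the groups did not overlap for 77.5% of all single genes tested, and the share among ratios of other gene pairs was not computed. With 2 libraries per group an exact permutation test cannot reach 0.05, and no test was made. The difference of the class medians, cytosolic minus mitochondrial on the log2(FPKM + 1) scale, was 3.05 and 3.03 in the libraries labelled KO, against 2.64 and 2.63 in those labelled WT. In every library the mitochondrial median lay between Mars2, which was called lower, and the next mitochondrial gene in rank. This difference therefore does not describe a shift of the whole class. The medians of the per-gene log2 changes were 0.19 for cytosolic and -0.02 for mitochondrial genes. The cytosolic gene was the more abundant in all 4 libraries for 11 pairs, and the exceptions were the cysteinyl and leucyl pairs. Both of these pairs changed their order between the groups, in opposite directions, and the leucyl values are given below. Cars was at 2.39 and 2.44 times the level of Cars2 in the libraries labelled KO, and at 0.679 and 0.742 times in those labelled WT. The methionyl pair parted as well, with Mars at 7.92 and 6.92 times Mars2 in the libraries labelled KO and at 4.41 and 4.46 times in those labelled WT. For the threonyl pair the ratio was 4.44 and 4.48 in the libraries labelled KO and 2.81 and 3.02 in those labelled WT.

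The 3 pairs with a lower ratio were the leucyl, arginyl and histidyl ones. Lars was at 0.684 and 0.877 times Lars2 in the libraries labelled KO and at 1.20 and 1.23 times in those labelled WT, a ratio that includes the uneven Lars2 of KO replicate 1. Rars was at 8.71 and 7.75 times Rars2 in the libraries labelled KO, against 10.3 and 11.7 times in those labelled WT. Hars was at 6.83 and 7.18 times Hars2 in the libraries labelled KO, against 7.29 and 7.35 times in those labelled WT. Hars and Hars2 are neighbours on chromosome 18, from 36766528 to 36783205 on the minus strand and from 36783008 to 36792562 on the plus strand, and their annotated starts overlap.

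**Figure D3:**
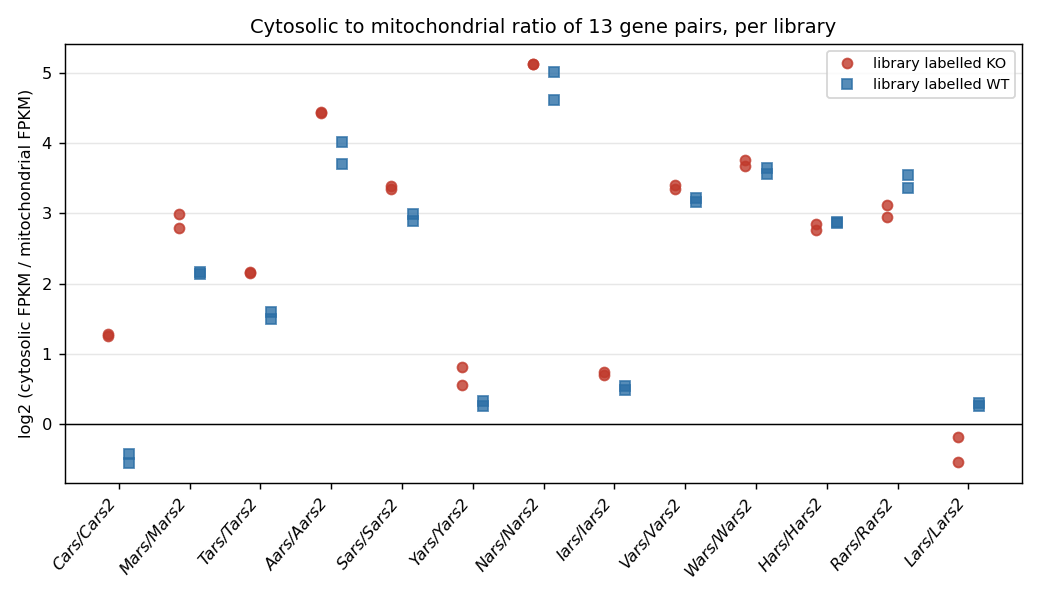
Log2 ratio of the cytosolic to the mitochondrial gene's FPKM for 13 pairs of matching symbol, ordered by the difference between groups. Each point is 1 library (red circles for those labelled KO, blue squares for those labelled WT). The ratio is higher in the libraries labelled KO for 10 pairs. The Cars/Cars2 points lie above 0 (equal levels) in the libraries labelled KO and below 0 in those labelled WT. The Lars/Lars2 points lie the other way, below 0 in the libraries labelled KO and above 0 in those labelled WT.

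The 36 genes lie on 15 chromosomes, with 5 on chromosome 1 and 4 each on chromosomes 7, 8 and 18. The median log2 change of all tested genes on these 15 chromosomes ran from -0.12 to 0.15. Members on the same chromosome did not all share a direction. On chromosome 8, Aars was called higher and Kars lower, and Farsa and Cars2 were not called. On chromosome 18, Nars was called higher, Lars and Hars lower, and Hars2 was not called. None of the 36 lies on chromosome 2, whose 834 tested genes had a median of 0.23.

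Of 14 genes that work beside the synthetases, 2 were called higher (14.3%) and 2 lower (14.3%), 10 were not called, and the median was -0.04. All genes tested had 24.4% called higher and 23.3% called lower. Among the 3 scaffold proteins of the multisynthetase complex, Aimp1 was lower, at 136 and 131 FPKM in the libraries labelled KO, against 164 and 162 FPKM in those labelled WT (-0.29 ± 0.031). Aimp2 (-0.09 ± 0.072) and Eef1e1 (-0.04 ± 0.058) were not called. Dtd1, which removes D-amino acids from transfer RNA, measured 48.2 and 47.8 FPKM in the libraries labelled KO, against 27.96 and 29.0 FPKM in those labelled WT (0.73 ± 0.037), and lies on chromosome 2. Xpot, which exports transfer RNA from the nucleus, rose by 0.33 ± 0.038. Aarsd1, an editing protein related to the alanyl enzyme, was lower by 0.16 on the log2 scale (-0.16 ± 0.048), a call that was lost when WT replicate 1, WT replicate 2 or KO replicate 1 was left out, without the filter, with quantile normalization and without a variance trend. The amidotransferase subunits Qrsl1, Gatb and Gatc, which complete mitochondrial glutaminyl-tRNA, had log2 changes of 0.11, 0.08 and -0.03 and were not called.

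Of 10 mitochondrial translation factors, 2 were called higher and 2 lower (20% each), with a median of -0.02. Among all genes tested these shares were 24.4% and 23.3%. Mrrf, the ribosome recycling factor, measured 12.6 and 12.6 FPKM in the libraries labelled KO, against 8.38 and 9.47 FPKM in those labelled WT (0.46 ± 0.070), and lies on chromosome 2. The initiation factor Mtif3 was higher (0.21 ± 0.046), while the initiation factor Mtif2 (-0.23 ± 0.041) and the elongation factor Gfm1 (-0.16 ± 0.031) were lower. The calls of these 3 were each lost without WT replicate 1. Those of Mtif2 and Gfm1 were also lost without WT replicate 2, those of Mtif3 and Gfm1 without KO replicate 1, and that of Mtif3 without KO replicate 2. Tufm, which brings charged transfer RNA to the mitochondrial ribosome, measured 131 and 132 FPKM in the libraries labelled KO and 129 and 122 FPKM in those labelled WT, and was not called.

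Of 27 tested genes of the ATF4 response, 23 were called higher (85.2%), 1 lower (3.70%) and 3 were not called. The median log2 change was 0.61. The shares over all genes tested were 24.4% higher and 23.3% lower. Like the other related lists, this list was chosen with earlier results of these data known, so its counts are a description. Atf4 itself measured 400.3 and 403 FPKM in the libraries labelled KO, against 193 and 198 FPKM in those labelled WT (1.03 ± 0.026). The largest were Chac1, a glutathione-degrading enzyme (2.23 ± 0.088), the pseudokinase Trib3 (2.01 ± 0.049), the mTORC1 inhibitor Ddit4 (1.82 ± 0.031) and the stress protein Nupr1 (1.74 ± 0.049). Chac1 and Trib3 lie on chromosome 2, as does Cebpb, a transcription factor gene of the same list. Asns, which makes asparagine and, like Atf4, was chosen after its values were seen, measured 148 and 146 FPKM in the libraries labelled KO, against 77.7 and 73.5 FPKM in those labelled WT (0.95 ± 0.036). Nars, which charges asparagine, had 0.49 beside it. The gene called lower was Slc1a5, a glutamine transporter (-0.24 ± 0.037). Atf5 (0.11), Pycr1 (0.19) and Stc2 (-0.02) were not called. Atf3 was below the filter, at 1.54 and 1.63 FPKM in the libraries labelled KO and 0.294 and 0.192 FPKM in those labelled WT, as was Cth, at 0 and 0.110 FPKM in the libraries labelled KO and 0 and 0.0533 FPKM in those labelled WT. Among the synthetases, Cars at 1.59 and Aars at 0.64 lay above the median of this list.

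Of 9 tested eIF2 alpha kinases and regulators, 4 were called higher (44.4%) and 1 lower (11.1%), beside 24.4% and 23.3% of all genes tested. With equal FPKM sums the counts were 2 higher and 2 lower. Eif2ak4, the GCN2 kinase that senses uncharged transfer RNA, measured 10.3 and 10.02 FPKM in the libraries labelled KO, against 8.35 and 8.93 FPKM in those labelled WT (0.21 ± 0.060). It lies on chromosome 2, and it had a call that was lost when any 1 of the 4 libraries was left out, without the filter and with equal FPKM sums. Eif2s1, the alpha subunit of eIF2, rose by 0.21 ± 0.028 and Ppp1r15b, a subunit of its phosphatase, by 0.23 ± 0.037. Ppp1r15a, the stress-induced subunit, was higher by 0.31 ± 0.094, and its call was lost when WT replicate 2, KO replicate 1 or KO replicate 2 was left out, without the filter, with equal FPKM sums and without a variance trend. Eif2ak2, the interferon-induced kinase activated by double-stranded RNA, was lower (-0.28 ± 0.036).

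**Figure D4:**
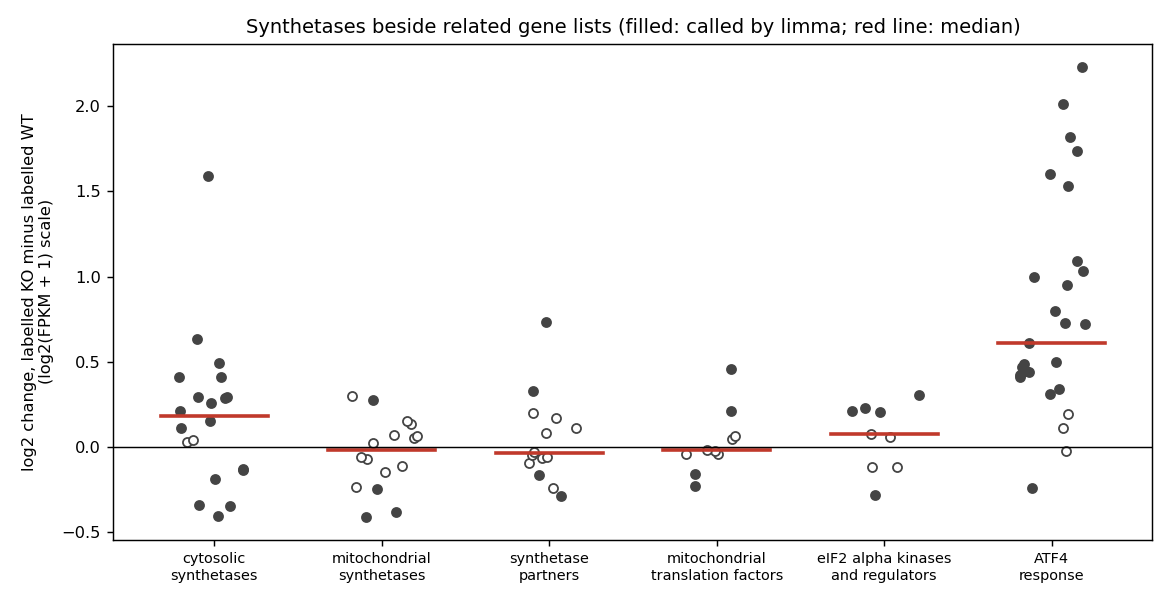
Log2 change, libraries labelled KO minus libraries labelled WT on the log2(FPKM + 1) scale, of each tested gene in the synthetase classes and the related lists (points; filled where called by limma), with the median of each list as a red line. The medians are 0.19 for cytosolic and -0.02 for mitochondrial synthetases, -0.04 for synthetase partners, -0.02 for mitochondrial translation factors, 0.08 for eIF2 alpha kinases and regulators and 0.61 for the ATF4 response.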

How the data were processed

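The authors deposited 1 FPKM value per gene symbol and library. The submitters' processing notes name Cufflinks 2.2.1, TopHat2 2.0.13, SAMtools 0.1.19 and Bowtie2 2.2.3 with build mm10. Their settings, the annotation and the use of strand are not given in the sources used here. RNeasy extraction and a strand-preserving TruSeq mRNA kit are named in the labels' protocols.

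Groups came from the labels. Depth was estimated from the whole-number steps of low FPKM values in genes with 1 annotated transcript (75.5% to 80.2% of 288 to 330 values lay within 0.1 fragment of a whole number). Whole reads were thus not recovered for nearly all genes, and no count test was run. Values were tested as log2(FPKM + 1), with genes of mean at least 1 FPKM kept, by limma 3.58.1 (R 4.3.3; lmFit, eBayes with a mean-variance trend, two-sided, no block, Benjamini-Hochberg adjustment). The script was tested on simulated data. Coordinates came from GENCODE M21 (GRCm38, the assembly of mm10), which matched 95.6% of symbols. Shared transcript sequence (at least 500 bases at 95% identity) was found with blastn 2.17.0, and figures were drawn with matplotlib 3.10.9. All 36 members are named, with the up to 4 largest changes of each related list and each gene where 5 or fewer went in 1 direction. The members and lists were chosen with earlier results of these data known. Alternatives covered the pseudocount, the filter, 3 scalings, the moderation, the replicate block and leaving out each library. Some items are not reported here.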

Additional observations from a re-analysis of the deposited data

How the results depend on the processing

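Of the 22 synthetase genes called, 14 (13 of them cytosolic) kept their call and direction in every alternative that could be run, and 8 lost it in at least 1; none of the 22 changed sign. Of the 14 not called, 3 (Fars2, Lars2 and Vars2) were called in at least 1 alternative, and 9 changed sign in at least 1. The number of mitochondrial genes called higher was 0 at a pseudocount of 0.1, without the filter, with equal FPKM sums and with the replicate block, where limma gave 1, Ears2, at an unadjusted p under 0.05. It was also 0 at a filter of 5 FPKM, which removes Ears2 and leaves 0 at an unadjusted p under 0.05. The number called lower was 5 with equal FPKM sums. The mitochondrial median was -0.090 at the 5 FPKM filter and -0.076 with equal FPKM sums, and the cytosolic median was 0.12 with equal FPKM sums, where the median of all genes tested was -0.06. The cause was not tested.

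Leaving out 1 library at a time gave 3216 (without WT replicate 2) to 3974 genes called, with 3325 without WT replicate 1. It gave 3 to 5 cytosolic genes called lower, 0 to 1 mitochondrial genes called higher (0 to 1 at an unadjusted p under 0.05) and 1 to 3 called lower. The cytosolic median ran from 0.17 to 0.20 and the mitochondrial median from -0.053 to 0.055. The lone remaining library of a group is then assumed to vary like the other group. Same-numbered replicates share only a number in the labels (correlation of their deviations 0.14, with 2 pairs), and the replicate block gave 4673 calls against 5159 and lost those of Qars, Ears2, Aarsd1, Eif2ak4 and Ppp1r15a. Depth limits the scarce genes Ears2, Wars2 and Pars2 most.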
